A study of Arabidopsis thaliana with 6 samples.

Results

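The genes described here are the 6 nuclear sigma factor genes of Arabidopsis thaliana, SIG1 to SIG6, and the 3 nuclear genes for phage-type RNA polymerases, RPOTp, RPOTmp and RPOTm. They were picked as gene families, by locus identifier, at a time when earlier results of these data were known, and make up 9 of the 33602 loci in each deposited table. All 9 were found in both tables, and all 9 passed the filter of a mean of at least 1 FPKM over both columns. FPKM stands for fragments per kilobase of gene length, scaled to the number of mapped fragments. It is a level per length, so levels of different genes within a column can be compared. The gene lengths the authors used are not given, so the order of genes at close levels is uncertain.

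Seedlings of accession Col were grown for 4 days at 22 °C under continuous red light, either as wild-type or as the mutant bbx4-1, with 3 samples per genotype and no other treatment or allele named in the labels. BBX4 is a B-box zinc finger gene. For each genotype the authors deposited a single column that combines its 3 replicates, so there is 1 value per gene and genotype. No spread between seedlings, no test and no p-value can be given, and each difference below lacks a replicate check.

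Arabidopsis plastids use a pair of transcription systems. The plastid-encoded polymerase (PEP) is a bacterial-type enzyme whose core subunits are made in the plastid, while the sigma factors that let it recognise promoters are made from nuclear genes and imported. The nucleus-encoded polymerase (NEP) consists of single-subunit enzymes related to those of bacteriophages. RPOTp works in plastids, RPOTm in mitochondria and RPOTmp in both. PEP mainly reads photosynthesis genes in green tissue, and NEP reads housekeeping genes, among them genes for core subunits of PEP.

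BBX4 itself had a level of 88.97 FPKM in the wild-type column and of 1095.7 FPKM in the mutant column, 12.3-fold higher, so the transcript of the mutated gene was not reduced in the column labelled as mutant, and the labels do not describe the allele. Whether the columns were exchanged, or the line carries more BBX4 transcript, was not tested. An exchange would turn the sign of every difference given below. The mutant column has the header BBX4, and the name bbx4-1 comes from the titles of its samples. It is called the bbx4-1-labelled column below. Single transfer RNA fragments put the depth behind the columns at about 48100000 and 49800000 fragments, treating each combined column as 1 library. The 3 green tissue markers RBCS1A (the small subunit of Rubisco), CAB2 and LHCB2.1 (light-harvesting proteins) lay between 1399.92 and 17575.14 FPKM, with log2 ratios of −0.038, 0.085 and −0.027. The root markers PYK10, SCR, SHR and WOX5 lay between 1.0 FPKM (WOX5) and 1971.78 FPKM (PYK10), with log2 ratios of 0.169, 0.214, −0.118 and 0.036. The flower markers AP1, AG and AP3, the pollen marker VGD1 and the seed marker SESA3 stood at 0.09 FPKM or less, and the seed storage gene CRA1 at 8.87 and 10.24 FPKM (log2 ratio 0.188), in a tissue labelled as seedlings. The part of tissue makeup in the differences below was not tested. In such bulk tissue, fewer cells of a type and less RNA per cell cannot be told apart.

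Of the 9 genes, SIG5 differed most between the columns. It stood 25.6% higher in the bbx4-1-labelled column, while the other 8 genes lay between 12.8% lower (RPOTmp) and 9.0% higher (RPOTp). The upstream sequences shown here serve to compare SIG5 and RPOTmp, which had the highest and the lowest log2 ratio, with their family members SIG4 and RPOTp. The lowest place depends on the pseudocount added to each FPKM. With a pseudocount of 1, RPOTmp was at −0.134 and SIG1 close by at −0.125. With a pseudocount of 5, RPOTmp was at −0.059 and SIG1 lower, at −0.118. They are the 250 bases before the annotated gene start, read 5′ to 3′ on the strand of the gene from the TAIR10.1 assembly of RefSeq. These 4 windows overlapped no other annotated gene. They lie at chr5:8160344-8160593 for SIG5, chr5:4430902-4431151 for SIG4, chr5:5121842-5122091 for RPOTmp and chr2:10254642-10254891 for RPOTp, each on the reverse strand. Capitals mark matches to the motifs described in the next paragraph.
SIG5: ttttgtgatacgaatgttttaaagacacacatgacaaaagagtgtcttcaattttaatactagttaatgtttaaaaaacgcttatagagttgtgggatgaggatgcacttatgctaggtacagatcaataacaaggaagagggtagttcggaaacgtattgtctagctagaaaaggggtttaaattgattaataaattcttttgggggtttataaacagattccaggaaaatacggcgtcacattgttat
SIG4: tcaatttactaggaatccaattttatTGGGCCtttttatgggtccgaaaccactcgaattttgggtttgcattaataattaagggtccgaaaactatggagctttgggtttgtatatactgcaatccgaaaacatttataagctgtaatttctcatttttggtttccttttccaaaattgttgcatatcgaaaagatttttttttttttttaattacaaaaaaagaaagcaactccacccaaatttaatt
RPOTmp: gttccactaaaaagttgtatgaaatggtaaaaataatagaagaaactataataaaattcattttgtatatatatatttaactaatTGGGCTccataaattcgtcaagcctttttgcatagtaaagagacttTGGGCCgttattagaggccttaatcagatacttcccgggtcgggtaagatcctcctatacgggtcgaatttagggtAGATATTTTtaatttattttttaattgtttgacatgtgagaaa
RPOTp: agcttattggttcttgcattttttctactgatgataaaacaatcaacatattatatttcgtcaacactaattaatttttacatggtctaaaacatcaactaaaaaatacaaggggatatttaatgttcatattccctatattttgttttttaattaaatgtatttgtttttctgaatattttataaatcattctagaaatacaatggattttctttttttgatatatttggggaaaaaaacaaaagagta

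Both strands of the windows were searched for 5 motifs. These were the G-box CACGTG, bound by light-signalling factors such as HY5, the evening element AAAATATCT of clock-regulated genes, the I-box GATAAG of light-regulated genes, and 2 forms of the site II element, TGGGCC and TGGGCT, known from growth and organelle-related genes. The SIG5 and RPOTp windows held no match to these motifs. The SIG4 window held TGGGCC from 224 to 219 bases before the gene start. The RPOTmp window held TGGGCT from 165 to 160 bases and TGGGCC from 119 to 114 bases before the start, and the evening element on the opposite strand from 43 to 35 bases before it.

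Over all 9 genes, 6 windows (SIG1, SIG2, SIG4, SIG6, RPOTmp and RPOTm) held a site II form, against 19.2% of the 27443 windows of nuclear protein-coding genes. TGGGCC matched in 6 of the 9 windows (13.7% of all windows) and TGGGCT in 3 (12.3%). In the RPOTm window, forward and reverse matches of TGGGCC overlapped. The evening element matched in SIG3 and RPOTmp (2.36% of all windows), the I-box in SIG3 and RPOTm (12.3%) and the G-box in 0 of the 9 (6.49%). The windows of SIG1, SIG2, SIG3, SIG6 and RPOTm ran into other annotated genes over 248, 118, 250, 144 and 72 bases. All matches of SIG1 and SIG3, the TGGGCT matches of SIG6 and the TGGGCC matches of RPOTm lay within those genes. The TGGGCC match of SIG6 crossed the edge of such a gene. Shares over all windows include such overlaps too. A match is a description of letters and says nothing of binding.

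SIG1 and SIG2 were the most abundant sigma factor transcripts. SIG1 (AT1G64860, chromosome 1, 24097736 to 24100970, forward strand) encodes a sigma factor of photosynthesis genes. It was at 74.57 FPKM in the wild-type column and 68.31 FPKM in the bbx4-1-labelled column. The log2 ratio, for a gene always log2(FPKM + 1) of the bbx4-1-labelled column minus that of wild-type, was −0.125. Its approximate counting standard error (SE), which covers the counting of fragments and not the variation between seedlings, was 0.022, and its 95% counting interval ran from −0.168 to −0.081. SIG1 had the lowest log2 ratio of the sigma factors.

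SIG2 (AT1G08540, chromosome 1, 2703295 to 2706860, forward strand) is needed for the plastid glutamate transfer RNA, from which chlorophyll synthesis starts. It had a level of 71.75 FPKM in the wild-type column and of 74.5 FPKM in the bbx4-1-labelled column, which gives a log2 ratio of 0.054 (SE 0.024). By the deposited values, the first place in the family thus went to SIG1 in wild-type and to SIG2 in the bbx4-1-labelled column. Counting intervals do not cover the unknown gene lengths behind these values. For SIG1 the merged exons make up 2372 bases and the longest annotated transcript 2200 bases. The ratio of SIG1 to SIG2 was 1.04 (95% counting interval 1.01 to 1.07) in wild-type and 0.917 in the bbx4-1-labelled column. There SIG2 exceeded SIG1 by a factor of 1.09 (1.06 to 1.13).

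SIG6 (AT2G36990, chromosome 2, 15537225 to 15540139, reverse strand) acts as a general sigma factor in young cotyledons. Its level was nearly the same in both columns, with 62.59 FPKM for wild-type and 62.47 FPKM in the bbx4-1-labelled column. The log2 ratio was −0.003, with a counting interval of −0.052 to 0.047. In both columns SIG6 ranked next, below SIG1 and SIG2 by more than counting error.

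SIG5 (AT5G24120, chromosome 5, 8157151 to 8160343, reverse strand) is a specialised sigma factor. It is known for directing PEP to the light-responsive psbD promoter, for its induction by blue light through cryptochromes and for its response to stress. It was at 28.59 FPKM in the wild-type column and 35.91 FPKM in the bbx4-1-labelled column, backed by about 3620 and 4710 fragments. The FPKM ratio was 1.256 (95% Clopper-Pearson counting interval 1.2026 to 1.312) and the log2 ratio 0.319 (SE 0.031, interval 0.258 to 0.379). No replicate column shows how far such a gene varies between seedlings of 1 genotype. Among nuclear loci with a mean of at least 1 FPKM, 3.24% had a higher log2 ratio of the bbx4-1-labelled over the wild-type column than SIG5, which ranked 608th of 18762. Among the 4870 nuclear loci within a factor of 2 of its mean level, the central 95% of log2 ratios ran from −0.27 to 0.31, so SIG5 lay just outside it.

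SIG3 and SIG4 were the neighbours of SIG5 in level. SIG3 (AT3G53920, chromosome 3, 19960789 to 19963980, reverse strand), known for reading psbN, was at 27.99 FPKM in the wild-type column and 29.59 FPKM in the bbx4-1-labelled column, which gives a log2 ratio of 0.078 (SE 0.035). SIG4 (AT5G13730, chromosome 5, 4429095 to 4430901, reverse strand), which affects the plastid NDH complex, had a level of 26.23 FPKM in the wild-type column and of 27.95 FPKM in the bbx4-1-labelled column, which gives a log2 ratio of 0.088 (SE 0.045). The Clopper-Pearson interval of its FPKM ratio of 1.066, from 0.9997 to 1.135, reached below 1. A gene on the opposite strand, AT5G13720 (25.74 and 24.19 FPKM), overlaps 13.8% of the exon length of SIG4, and no source used here says whether counting used strand, so the values of SIG4 are uncertain.

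In wild-type, SIG5 and SIG3 did not differ beyond counting error, with a ratio of 1.02 (0.973 to 1.07). In the bbx4-1-labelled column, SIG5 exceeded SIG3 by a factor of 1.21 (1.16 to 1.27). SIG3 exceeded SIG4 by a factor of 1.07 (1.01 to 1.13) in wild-type and 1.06 (1.0 to 1.12) in the other column, a small step in each. The widest step in the family separated SIG6 from SIG5, at a ratio of 2.19 (2.1 to 2.28) in wild-type and 1.74 (1.68 to 1.81) in the bbx4-1-labelled column.

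**Figure D1:**
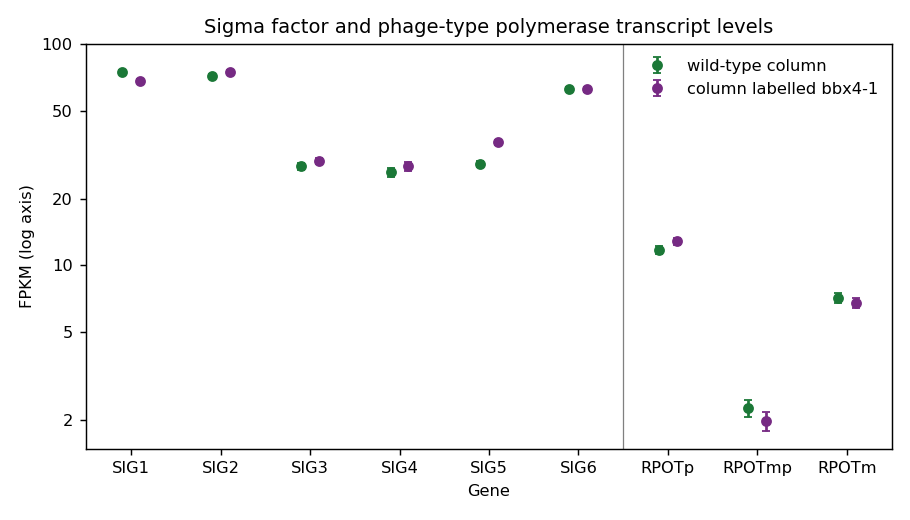
Transcript level of each of the 9 genes in FPKM on a log axis, in the wild-type column (green) and in the bbx4-1-labelled column (purple); bars are approximate 95% counting intervals. SIG1, SIG2 and SIG6 stood between 62.47 and 74.57 FPKM, SIG3, SIG4 and SIG5 between 26.23 and 35.91 FPKM, and the polymerases between 1.97 and 12.78 FPKM.

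The phage-type polymerase transcripts were less abundant than every sigma factor transcript in both columns. RPOTp (AT2G24120, annotated as SCA3, chromosome 2, 10248851 to 10254641, reverse strand), the NEP of plastids, was at 11.73 FPKM in the wild-type column and 12.78 FPKM in the bbx4-1-labelled column. Its log2 ratio was 0.114 (SE 0.040, interval 0.036 to 0.192), the highest of the polymerases.

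RPOTm (AT1G68990, annotated as MGP3, chromosome 1, 25934997 to 25940996, reverse strand) is the mitochondrial enzyme. It had a level of 7.11 FPKM in the wild-type column and of 6.74 FPKM in the bbx4-1-labelled column, which gives a log2 ratio of −0.067 with an interval of −0.166 to 0.031. A gene on the opposite strand, AT1G68980 (3.96 and 3.65 FPKM), overlaps 0.92% of its exon length. RPOTmp (AT5G15700, chromosome 5, 5114761 to 5121841, reverse strand), the enzyme of both organelles, was the scarcest of the 9 with 2.26 FPKM for wild-type and 1.97 FPKM in the bbx4-1-labelled column. With about 467 and 422 fragments its log2 ratio of −0.134 (SE 0.066) had a wide interval of −0.263 to −0.006. The FPKM ratio of RPOTmp was 0.872, and the pseudocount of 1 makes its log2 ratio understate that change.

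The order RPOTp, RPOTm, RPOTmp held in both columns by more than counting error. RPOTp exceeded RPOTm by a factor of 1.65 (1.54 to 1.77) in wild-type and 1.9 (1.77 to 2.03) in the bbx4-1-labelled column. RPOTm exceeded RPOTmp by factors of 3.15 (2.83 to 3.5) and 3.42 (3.06 to 3.82).

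The counts past a fold threshold were close to those of the other nuclear genes. At least 1.2-fold higher was 1 of the 9, SIG5, against 5.16% of the 18762 nuclear loci. At least 1.2-fold lower were 0 of the 9, against 3.57%, and 0 of the 9 differed 2-fold, against 0.144%. Centring the log2 ratios on the nuclear median turned the split of nuclear loci past 1.2-fold from 969 higher and 669 lower into 750 higher and 886 lower, and left SIG5 as the single member past 1.2-fold.

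By more than their 95% counting interval, 5 of the 9 (SIG2, SIG3, SIG4, SIG5 and RPOTp) lay above 0, against 24.1% of the nuclear loci with an annotated length. Below 0 by that margin were SIG1 and RPOTmp, 2 of the 9, against 12.8%. SIG4 lay at the edge, as its log2 ratio interval began at 0.000464 and the Clopper-Pearson interval of its FPKM ratio at 0.9997. Both intervals rest on estimated fragment numbers. The margin narrows as the number of fragments grows, and among nuclear loci with a mean of at least 10 FPKM the shares were 33.8% and 14.5%. After centring on the nuclear median, or rescaling both columns to the same nuclear sum, 2 genes, SIG5 and RPOTp, stayed above 0 by the interval, and SIG1 and RPOTmp below it. Counting error was also a small part of the spread: at a mean of at least 10 FPKM log2 ratios had an SD of 0.154 over loci, while the counting SE had a root mean square of 0.047.

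**Figure D2:**
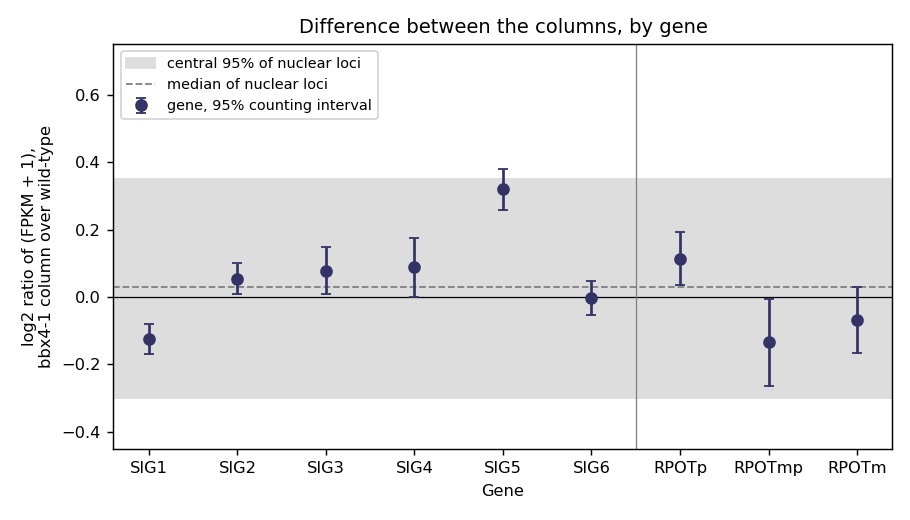
Log2 ratio of (FPKM + 1), bbx4-1-labelled column over wild-type, for each of the 9 genes, with 95% counting intervals; the grey band is the central 95% of nuclear loci with a mean of at least 1 FPKM (−0.3 to 0.35) and the dashed line their median (0.029). SIG5 at 0.319 lies near the top of the band, and the other 8 genes lie between −0.134 and 0.114.

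The summed level of each family barely differed between the columns. The 6 sigma factors summed to 291.72 FPKM in wild-type and 298.73 FPKM in the bbx4-1-labelled column, which gives a log2 ratio of the sums of 0.034. The 3 polymerases summed to 21.1 and 21.49 FPKM, a log2 ratio of the sums of 0.026. Both ratios of sums were taken without a pseudocount. The median log2 ratio of the sigma factors was 0.066 and that of the polymerases −0.067, beside 0.029 over all nuclear loci tested. The median of the polymerases was 0.023 when RPOTmp, the member of lowest level, was left out.

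Within the sigma factor sum, SIG1 made up 25.6% in wild-type and 22.9% in the bbx4-1-labelled column. SIG5 made up 9.8% and 12.0%. The shares of SIG2 (24.6% and 24.9%), SIG6 (21.5% and 20.9%), SIG3 (9.59% and 9.91%) and SIG4 (8.99% and 9.36%) moved by less than 1 percentage point. The ratio of SIG1 to SIG5 was 2.61 in wild-type and 1.9 in the bbx4-1-labelled column. Among the polymerases, RPOTp made up 55.6% in wild-type and 59.5% in the bbx4-1-labelled column, RPOTm 33.7% and 31.4%, and RPOTmp 10.7% and 9.17%. The summed FPKM of the sigma factors was 13.8 times that of the polymerases in wild-type and 13.9 times in the other column.

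The 9 genes also differ in build. Coding sequences run from 1260 bases in SIG4 to 1719 bases in SIG2 among the sigma factors, taking the longest model of each gene, and from 2952 bases in RPOTm to 3156 bases in RPOTmp among the polymerases. SIG4 has 4 exons, and the longest RPOTmp coding model has 20. SIG5 has 3 annotated transcripts with the same 1554-base coding sequence and start sites at 8160343 and 8160163, and the deposited values do not separate them. The members share little sequence at the scale of a short read. Of the distinct 31-base windows within exons, 100% occurred once in the genome for SIG1, SIG2, SIG4, SIG5, SIG6 and RPOTp, 99.9% for SIG3, 99.33% for RPOTmp and 99.23% for RPOTm, and 0 were shared between members.

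**Figure D3:**
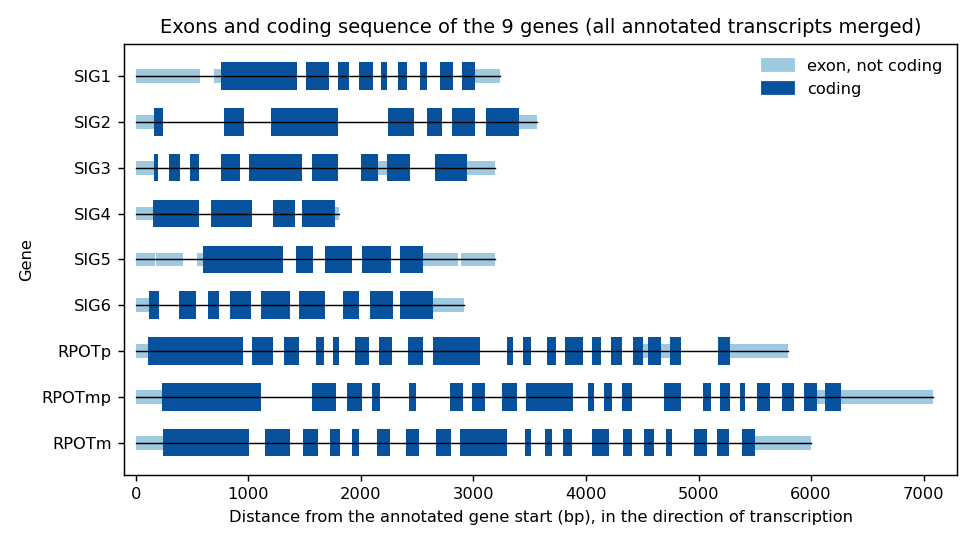
Gene models of the 9 genes, drawn to scale in base pairs from the annotated gene start in the direction of transcription, with all annotated transcripts merged; light blue is exon that is not coding, dark blue is coding sequence and the line is intron. The polymerase genes span 5791 to 7081 bp and the sigma factor genes 1807 to 3566 bp.

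Genes next to SIG5 were barely detected. Its nearest neighbours in the tables, WRKY30 and AT5G24130, were listed at 0.18 and 0.53 FPKM in wild-type and at 0.16 and 0.34 FPKM in the bbx4-1-labelled column. The next gene upstream of SIG1, AT1G64850, begins 2 bases away on the opposite strand and stood at 41.67 and 44.24 FPKM, a log2 ratio of 0.084, where SIG1 had −0.125.

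Transcripts of nuclear genes for proteins that bind the PEP core stood slightly higher in the bbx4-1-labelled column. Of 12 PEP-associated proteins, 12 had a log2 ratio above 0, with a median of 0.101, beside 59.5% of nuclear loci above 0 and their median of 0.029. Past 1.2-fold were 0 of the 12, against 5.16% of nuclear loci higher and 3.57% lower. By their counting interval 9 lay above 0, against 24.1% of nuclear loci and 33.8% of those with a mean of at least 10 FPKM. FSD3, a plastid iron superoxide dismutase, went from 19.1 FPKM in wild-type to 22.01 FPKM (log2 ratio 0.195) and PTAC10 from 23.68 to 26.33 FPKM (0.147). The lowest were TRXz, a plastid thioredoxin, at 0.020 and FSD2, a partner of FSD3, at 0.041. PTAC7 was the most abundant, at 114.25 and 120.98 FPKM. After centring on the nuclear median or rescaling to the nuclear sum, 11 of the 12 were above 0, and 6 (centred) or 8 (rescaled) lay above 0 by the interval.

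Transcripts for other proteins of plastid DNA-protein bodies (nucleoids) or of PEP assembly went both ways. Of 14, 8 were above 0 and 6 below, which is 57.1% above against 59.5% of nuclear loci. Their median was 0.038, and 0 passed 1.2-fold, against the same 5.16% and 3.57%. PTAC13 was highest at 0.134 and MRL7-L next at 0.10. The RNA-binding proteins CSP41A (482.96 and 435.48 FPKM) and CSP41B, the most abundant of the list (1032.94 and 974.51 FPKM), were lowest at −0.149 and −0.084. Transcripts of the organellar mTERF proteins, a family named after mitochondrial transcription termination factors, had a median of 0.065. Of 8, 8 lay above 0 as deposited, against 59.5% of nuclear loci. After centring, which puts the nuclear median at 0, 6 did, and after rescaling to the nuclear sum 6, against 53.3%. By the counting interval 1 of the 8 lay above 0, against 24.1% of nuclear loci. This was PTAC15 (9.29 and 10.58 FPKM, 0.170). MTERF15 followed at 0.142, and BSM and pde191, the most abundant (55.02 and 55.35 FPKM), were at 0.008.

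Transcripts of the 4 partners and kinases of the sigma factors that passed the filter had log2 ratios between −0.052 and 0.07. The chloroplast casein kinase CKA4, which phosphorylates SIG6, stood at 72.21 and 73.62 FPKM (0.028). The chloroplast sensor kinase CSK, which acts on SIG1, stood at 22.67 and 21.83 FPKM (−0.052). DG1, a partner of SIG6, was at 0.07 (7.86 and 8.3 FPKM) and the sigma factor binding protein SIB2 at 0.028 (5.72 and 5.85 FPKM). SIB1, which binds sigma factors and is known from defence, was under the filter at 0.6 and 0.97 FPKM, with an FPKM ratio of 1.62 and a log2 ratio of 0.30 (interval 0.065 to 0.535), the widest difference of the 5 listed. Of the 4 that passed the filter, 0 differed from 0 by more than their counting interval, and the median of the list (0.028) turned to −0.001 after centring, where 1, CSK, lay below 0 by the interval.

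The 3 light regulators of SIG5 listed here did not share a direction. HY5, a light-signalling transcription factor that acts on SIG5, was at 33.15 FPKM in the wild-type column and 35.44 FPKM in the bbx4-1-labelled column (0.094, interval 0.009 to 0.178). Its homologue HYH stood at 64.38 and 69.36 FPKM (0.106). The blue-light receptor gene CRY1 stood at 65.43 and 57.75 FPKM (−0.177, interval −0.219 to −0.136), in seedlings grown under red light. Of these 3 genes, 0 passed 1.2-fold, against 5.16% of nuclear loci higher and 3.57% lower. After centring, the intervals of HY5 (−0.02 to 0.15) and HYH (−0.001 to 0.155) included 0, and that of CRY1 (−0.247 to −0.165) did not.

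**Figure D4:**
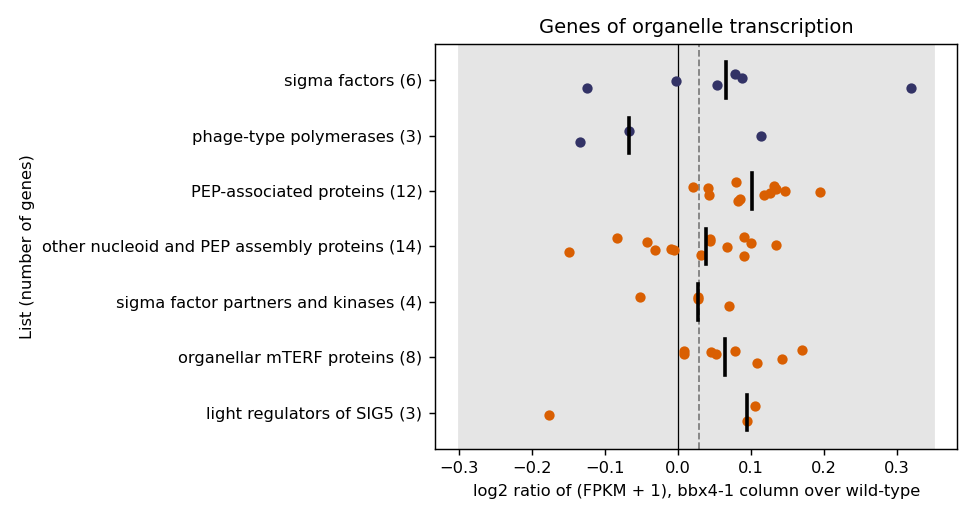
Log2 ratio of (FPKM + 1), bbx4-1-labelled column over wild-type, for genes of organelle transcription with a mean of at least 1 FPKM; each point is a gene, black bars are medians, the grey band is the central 95% of nuclear loci and the dashed line their median. The 12 PEP-associated proteins lie between 0.020 and 0.195, and SIG5 at 0.319 is the highest point of the 7 lists.

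The transcripts made by these polymerases stood lower as groups. Of 133 plastid loci, 122 were below 0 and 11 above, with a median log2 ratio of −0.335. At least 1.2-fold lower were 83 and higher were 4, against 3.57% and 5.16% of nuclear loci. Of 146 mitochondrial loci, 36 passed the filter, and 34 of these were below 0, with a median of −0.384. Of nuclear loci, 59.5% were above 0. No counting interval was available for the organelle loci. The sigma factors with their median of 0.066 and the polymerases with −0.067 did not share the size of the organelle differences. Libraries were enriched for poly(A), and plant organelle transcripts mostly lack stable poly(A) tails, so they are captured in part. Ribosomal RNA of the 18S type, read from the nuclear loci AT3G41768 (6040.55 and 4377.92 FPKM) and AT2G01010 (193.9 and 125.18 FPKM), likewise lacks such tails and was also lower, at −0.464 and −0.627. The part of poly(A) enrichment in the organelle values was not tested. With both columns rescaled to the same sum over nuclear loci other than ribosomal RNA, SIG5 was at 0.297 and SIG1 at −0.147.

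**Figure D5:**
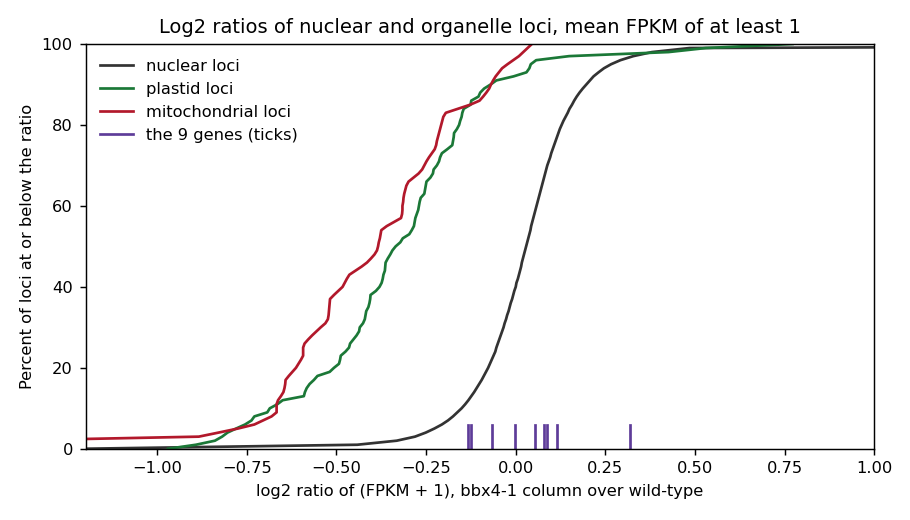
Cumulative distribution of the log2 ratio of (FPKM + 1), bbx4-1-labelled column over wild-type, for 18762 nuclear, 133 plastid and 36 mitochondrial loci with a mean of at least 1 FPKM; the vertical axis is the percent of loci at or below each ratio and purple ticks mark the 9 genes. The organelle curves lie to the left of the nuclear curve over most of their range, at medians of −0.335 and −0.384 against 0.029. The plastid curve lies to its right at percentiles 98 (0.426 against 0.38) and 99 (0.53 against 0.485). The horizontal axis does not reach the lowest mitochondrial ratio (−2.711) or the highest nuclear ratio (3.608).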

How the data were processed

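The authors deposited 2 tables, 1 per genotype, each with 1 column of FPKM to 2 decimals that combines 3 replicates, per the file headers, the labels and the design text. Per the submitters' processing notes, HISAT2 2.1.0, edgeR 3.0.8 and the build TAIR10 were used. No source used here gives their roles, the counting tool, the annotation release, strand or filters. Which sample gave which part of a combined column cannot be told, so no SD, n or test was computed.

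Values were compared as log2(FPKM + 1), for loci with mean FPKM of at least 1, as deposited. Depth was estimated from FPKM times length of transfer RNA genes of at most 75 bp, using values within 1.5 times the lowest (20 genes in wild-type and 18 in bbx4-1). With exon lengths from the TAIR10.1 annotation of RefSeq, matched by locus for 32835 loci, this gave fragments per gene and counting SEs. Simulated independent fragments checked the arithmetic only. They used the same exon lengths and a mean of 3 libraries, so they cannot check the authors' lengths or how replicates were combined. PCR copies are not independent molecules, so intervals cover counting error only. The FPKM ratio interval is a Clopper-Pearson interval. It was computed from rounded, estimated fragment numbers and the estimated depths, so it is approximate too. TAIR10.1 also gave coordinates and upstream sequence. Python 3.11.15, numpy 2.4.6, pandas 2.3.3 and scipy 1.17.1 were used.

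The members and lists were chosen with earlier results of these data known. Named were the 9 members, every entry of gene lists and marker lists of at most 7 genes and, of longer lists, the 2 highest and 2 lowest log2 ratios and the most abundant gene. Plastid and mitochondrial genes listed for naming are not reported singly, since the annotation used here does not pair their identifiers with names. With 2 columns, likeness of pattern between genes could not be measured. Alternatives covered the pseudocount, filter, scaling, gene length and list membership.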

Additional observations from a re-analysis of the deposited data

How the results depend on the processing

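The log2 ratio of each of the 9 genes moved by less than its 95% counting interval at pseudocounts of 0.1 and 5, after centring on the nuclear median and after rescaling to the nuclear sum, and the 3 list medians moved by less than the median counting interval of their genes in every planned setting. The median of the polymerases nevertheless changed sign, from −0.067 to 0.023, with a filter at mean FPKM of 5 and without the gene of lowest level, since each leaves out RPOTmp. Genes above 0 by their counting interval numbered 2 in place of 5 after centring and after rescaling to the nuclear sum. Genes below 0 by it numbered 1 in place of 2 with the filter at mean FPKM of 5, which drops RPOTmp. SIG5 was the single gene past 1.2-fold in each setting run. The nuclear loci past 1.2-fold, 969 higher and 669 lower, numbered 1411 and 1062 at a pseudocount of 0.1, and 373 and 239 at a pseudocount of 5.

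As shares of fragments (FPKM times exon length) in place of FPKM, which weights long transcripts more by construction, SIG1 made up 28.2% of the sigma factors in wild-type and 25.2% in the bbx4-1-labelled column, SIG2 23.4% and 23.7%, SIG4 6.08% and 6.32%, SIG5 12.0% and 14.7%, and SIG6 20.4% and 19.8%. RPOTmp made up 12.1% and 10.4% of the polymerases. No paired analysis was possible because each genotype has a single combined column, and for the same reason no replicate could be left out. Depth limits RPOTmp most, at about 467 and 422 fragments.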
